A study of Homo sapiens with 6 samples.

Results

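Catecholamine handling was followed in the human neuroblastoma line SH-SY5Y, which is of sympathetic lineage, through 9 genes that synthesise, store, take up or break down dopamine and noradrenaline. The genes were taken by symbol: TH, DDC, DBH and GCH1 for synthesis, SLC18A1, SLC18A2 and CYB561 for storage, SLC6A2 for uptake and MAOA for breakdown. All 9 were present among 26372 gene symbols. The cells carried a stably integrated lentiviral short hairpin RNA against TDP-43 (shTDP43) or a control hairpin (shNC), and the labels describe puromycin selection for the knockdown cells. TARDBP encodes TDP-43, a nuclear protein that binds RNA and DNA and that is depleted from the nucleus of affected neurons in amyotrophic lateral sclerosis. There were 3 poly(A) RNA libraries for each hairpin, each with an FPKM value per gene (fragments per kilobase of gene, scaled to library size, so that levels of different genes can be set side by side). The labels describe a single hairpin per group and no rescue, so loss of TDP-43 cannot be told apart from other effects of that hairpin or of the infected population. Separate infections or cultures are not mentioned in the labels, so the p-values speak for the spread of these samples alone, which may be technical.

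In noradrenergic cells, tyrosine hydroxylase (TH) turns tyrosine into L-DOPA with the cofactor tetrahydrobiopterin, whose synthesis starts with GTP cyclohydrolase (GCH1). Aromatic amino acid decarboxylase (DDC) makes dopamine from L-DOPA, vesicular monoamine transporters (SLC18A1 and SLC18A2) carry it into granules, and dopamine β-hydroxylase (DBH) converts it there to noradrenaline with electrons from ascorbate that cytochrome b561 (CYB561) passes across the granule membrane. Released noradrenaline is taken up again by the noradrenaline transporter (SLC6A2), and monoamine oxidase A (MAOA) at the mitochondrial outer membrane oxidises it. DBH and HAND2 are commonly used to recognise noradrenergic neuroblastoma cells.

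Promoter sequences were found for 5 of the 9 genes, and not for TH, GCH1, SLC18A1 and SLC6A2. For DBH, DDC and SLC18A2, the 250 bases before the transcription start are printed here 5′ to 3′ on the gene's own strand (RefSeq, GRCh38.p14). DBH and DDC are the synthesis genes that rose, and SLC18A2 is a storage gene whose difference did not pass the test. DBH lies on the plus strand of chromosome 9 (chr9:133636113-133636362), SLC18A2 on the plus strand of chromosome 10 (chr10:117240864-117241113), and DDC on the minus strand of chromosome 7 with a distal start (chr7:50565406-50565655) and a proximal start 4334 bases further downstream (chr7:50561072-50561321). Capitals mark TGACG, the core of a cyclic AMP response element, and ATTA, the core that many homeodomain proteins bind, each searched on both strands (a match on the other strand reads TAAT in the case of ATTA).
DBH: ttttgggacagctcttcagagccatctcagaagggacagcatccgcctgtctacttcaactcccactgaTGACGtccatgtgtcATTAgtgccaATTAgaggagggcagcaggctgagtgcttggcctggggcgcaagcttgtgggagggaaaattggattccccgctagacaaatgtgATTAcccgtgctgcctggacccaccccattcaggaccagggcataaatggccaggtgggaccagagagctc
DDC distal start: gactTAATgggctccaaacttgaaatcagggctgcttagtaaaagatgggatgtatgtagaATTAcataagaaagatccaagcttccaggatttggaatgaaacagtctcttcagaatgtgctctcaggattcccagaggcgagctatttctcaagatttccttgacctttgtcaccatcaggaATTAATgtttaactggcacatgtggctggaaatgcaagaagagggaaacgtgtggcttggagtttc
DDC proximal start: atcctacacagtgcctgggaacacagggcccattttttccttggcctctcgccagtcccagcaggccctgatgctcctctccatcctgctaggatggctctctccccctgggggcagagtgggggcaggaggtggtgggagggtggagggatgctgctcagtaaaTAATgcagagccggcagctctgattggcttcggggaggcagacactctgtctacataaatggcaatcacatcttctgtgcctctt
SLC18A2: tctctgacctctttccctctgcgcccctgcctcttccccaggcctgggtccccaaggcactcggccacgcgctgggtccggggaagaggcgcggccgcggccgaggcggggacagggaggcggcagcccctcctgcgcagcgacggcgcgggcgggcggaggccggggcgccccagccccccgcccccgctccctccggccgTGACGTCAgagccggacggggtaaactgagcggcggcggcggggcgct
In DBH, TGACG began 181 bases before the start and ATTA began 166, 156 and 71 bases before it. The SLC18A2 window held the full palindrome TGACGTCA, which overlaps TGACG on both strands, 48 bases before the start, and no ATTA. Neither DDC window held TGACG, while ATTA or its complement occurred 4 times before the distal start, where a pair of matches overlapped, and 1 time before the proximal start, 85 bases upstream of it. Among 35116 promoter windows of the same length, 21.2% held TGACG, 1.65% held TGACGTCA and 47.4% held ATTA. Of the 9 windows found for 5 of the genes (DDC, DBH, SLC18A2, CYB561 and MAOA), 2 held TGACG, 1 held TGACGTCA and 5 held ATTA. The window of MAOA, whose difference did not pass, also held ATTA. CYB561, which was called higher, held ATTA in only 1 of its windows. A relation between these motifs and the differences was not tested. An E-box that basic helix-loop-helix factors bind, CAGCTG, was in 1 of the 9 windows (MAOA) and 14.0% of all windows, and GATAA, the core bound by zinc finger factors such as GATA3, was in 0 of the 9 and 20.4% of all. Which start was used in these cells was not analysed here.

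The targeted gene followed the labels. TARDBP had 36.0, 33.1 and 34.8 FPKM in the shTDP43 libraries, against 56.1, 56.2 and 56.6 FPKM in the shNC libraries, which is 61.5% of the shNC mean (limma adjusted p = 2.84e-06). Absolute depth is unknown. Relative depth, estimated roughly from steps in the lowest values, was 1 to 1.12 for shTDP43 and 1.16 to 1.28 for shNC libraries, and between 17945 and 18025 genes were above 0 in shTDP43 libraries, against 18217 to 18334 in shNC libraries. Across tested genes r was 0.993 to 0.995 between libraries of 1 group and 0.980 to 0.982 between the groups. The small nucleolar RNA SNORD3A stood apart in shTDP43 replicate 3 and shNC replicate 1, at 8551 and 11541 FPKM, against 137209 to 552747 FPKM in the other libraries, and counts are given below without these libraries where they differ.

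The comparison asks how messages of the catecholamine pathway differ in cells that stably carry the hairpin against TDP-43. DDC, DBH, SLC18A1 and CYB561 rose by modest amounts, to between 107% and 127% of the shNC level, and the noradrenaline transporter gene SLC6A2 fell to 84.5%. GCH1, SLC18A2 and MAOA, at 102%, 103% and 108.7% of the shNC level, did not pass the test, and TH was close to 0 in both groups. A gene was tested where its mean over the 6 libraries was at least 1 FPKM, which 8 of the 9 genes reached. A call is a Benjamini-Hochberg adjusted p under 0.05 from limma on log2(FPKM + 1) over all 13263 tested genes. Of the 8 genes, 4 were called higher, against 18.5% of all tested genes, and 1 was called lower, against 19.6% of all; in either direction 5 of 8 were called, against 38.1%. The groups did not overlap in 5 of the 8 genes, against 50.7% of all tested genes. The median log2 difference of the 8 was 0.10, and that of all tested genes 0.0012. Messages per cell and the share of cells of a type cannot be told apart in these bulk libraries. DDC, DBH and SLC6A2 were called under all 15 alternative settings, whereas SLC18A1 and CYB561 were called under 6 and 8 of them, so that 2 genes were higher without both libraries low in SNORD3A.

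**Figure D1:**
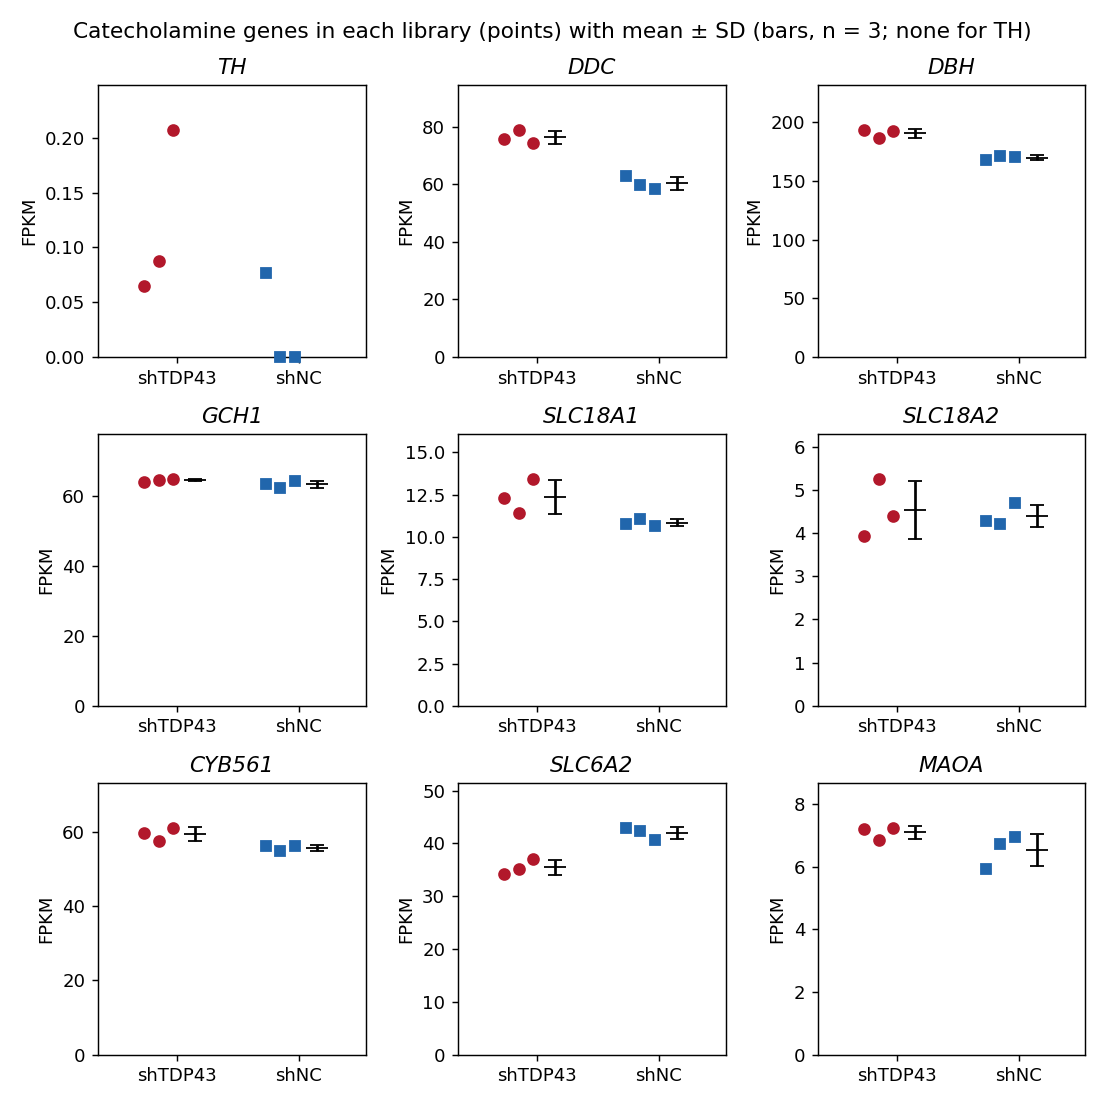
FPKM (vertical axis, each panel from 0) of the 9 catecholamine genes in each shTDP43 library (red circles) and shNC library (blue squares), with the mean ± SD of 3 libraries beside them except for TH. DDC, DBH, SLC18A1 and CYB561 lie higher in every shTDP43 library, SLC6A2 lies lower, and TH stays at or under 0.207 FPKM.

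TH, the rate-limiting enzyme gene of the pathway (GRCh38 chromosome 11, 2163929 to 2171815), was the lowest of the 9 genes. It had 0.0647, 0.0873 and 0.207 FPKM in the shTDP43 libraries, against 0.0763, 0 and 0 FPKM in the shNC libraries. The groups overlapped, and the value was under the level tested in every library, so no fold is given. An exact two-sided permutation test of the 6 values gave p = 0.2, and with 3 libraries against 3 such a test cannot go below 0.1. By mean level TH ranked 16986th among the 26372 symbols, while the next enzymes of the chain were abundant messages: DBH ranked 310th and DDC 852nd.

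DDC (chromosome 7, 50458442 to 50565405) showed the largest difference of the 8 tested genes. It had 75.9, 78.8 and 74.4 FPKM in the shTDP43 libraries, against 62.9, 59.7 and 58.5 FPKM in the shNC libraries. Each shTDP43 library thus stood above each shNC library, with a gap wider than the range within either group. The means were 76.4 ± 2.25 FPKM in shTDP43 and 60.4 ± 2.29 FPKM in shNC (SD, n = 3 each), a log2 difference of 0.33 (SE 0.03; limma adjusted p = 0.000188). Of all tested genes, 88.6% had a smaller log2 difference in size. DDC-AS1, an RNA on the opposite strand within DDC, had 2.33, 2.48 and 2.64 FPKM in shTDP43 and 1.67, 1.47 and 1.64 FPKM in shNC libraries (log2 difference 0.43, limma adjusted p = 0.00296). The sources used here do not state whether the counting used strand, so the overlapping pair cannot be separated. DDC-AS1 was named after its values were seen.

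DBH (chromosome 9, 133636363 to 133659329), the enzyme gene that marks noradrenaline synthesis, had the highest level of the 9. It stood at 193, 186 and 193 FPKM in the shTDP43 libraries, against 168, 171 and 170.3 FPKM in the shNC libraries. The groups did not overlap. Means of 190.6 ± 3.86 FPKM in shTDP43 and 169.8 ± 1.86 FPKM in shNC (SD, n = 3 each) gave 112% of the shNC level and a log2 difference of 0.17 (SE 0.02; limma adjusted p = 0.000936). The antisense RNA DBH-AS1 within it had 6.20 ± 0.597 FPKM in shTDP43 and 5.54 ± 0.388 FPKM in shNC (SD, n = 3 each; limma adjusted p = 0.178), with the same limit on strand.

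GCH1 (chromosome 14, 54842017 to 54902826), the entry enzyme gene of the cofactor, did not pass the test. Its values were 64.0, 64.6 and 64.7 FPKM in shTDP43 libraries, against 63.5, 62.2 and 64.2 FPKM in shNC libraries. The groups overlapped, and the log2 difference was 0.03 with a 95% interval from -0.03 to 0.08 (limma adjusted p = 0.399).

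Both vesicular transporter genes were expressed, with SLC18A1, the form known best from adrenal chromaffin cells, above SLC18A2, the neuronal form. SLC18A1 (chromosome 8, 20144855 to 20183136) had 12.3, 11.4 and 13.4 FPKM in shTDP43 libraries, against 10.8, 11.1 and 10.7 FPKM in shNC libraries. Its groups did not overlap, but the shTDP43 libraries were the more scattered ones and the lowest of them lay close to the highest shNC library. The log2 difference was 0.17 (SE 0.06; limma adjusted p = 0.0384). Without shTDP43 replicate 3, its highest library, the log2 difference was 0.12 (adjusted p = 0.0976), and the call was also lost without shTDP43 replicate 1 or any single shNC library, with adjusted p values of up to 0.0987. SLC18A2 (chromosome 10, 117241114 to 117279430) had 3.93, 5.25 and 4.40 FPKM in shTDP43 libraries, against 4.27, 4.21 and 4.69 FPKM in shNC libraries. Here the shTDP43 group held both the highest and the lowest library. The log2 difference was 0.03 with a 95% interval from -0.18 to 0.24 (limma adjusted p = 0.819), and it was -0.06 without shTDP43 replicate 2. SLC18A2 overlaps the end of PDZD8 on the opposite strand, at 16.8 ± 0.335 FPKM in shTDP43 and 17.3 ± 0.0923 FPKM in shNC (SD, n = 3 each). As the use of strand in counting is not stated, this pair cannot be separated where it overlaps. The level of SLC18A2 and its ratio to SLC18A1 carry that limit.
Within a library, SLC18A2 stood at 0.319, 0.46 and 0.328 of the SLC18A1 level in shTDP43, against 0.396, 0.38 and 0.44 in shNC. This ratio of FPKM values overlapped between the groups (exact two-sided permutation p = 0.4).

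CYB561 (chromosome 17, 63432304 to 63446639), the electron carrier gene of the granule membrane, had 59.7, 57.4 and 61.0 FPKM in shTDP43 libraries, against 56.1, 54.7 and 56.0 FPKM in shNC libraries. The groups did not overlap, with a narrow gap between the lowest shTDP43 and the highest shNC library. The log2 difference was 0.09 (SE 0.03; limma adjusted p = 0.0330), the smallest of the 5 that passed, and 41.5% of tested genes had a smaller difference in size. The call was lost without any single library other than shTDP43 replicate 2, with adjusted p values between 0.0598 and 0.106.

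SLC6A2 (chromosome 16, 55655988 to 55706192), the only one of the 8 tested genes that fell, had 34.2, 35.2 and 37.1 FPKM in shTDP43 libraries, against 42.9, 42.4 and 40.6 FPKM in shNC libraries. Each shTDP43 library lay below each shNC library. The means of 35.5 ± 1.46 FPKM in shTDP43 and 42.0 ± 1.21 FPKM in shNC (SD, n = 3 each) differed by -0.24 on the log2 scale (SE 0.04; limma adjusted p = 0.00150), and the value stayed between -0.27 and -0.21 when each library was left out in turn. Within a library, the message of DBH, whose product makes the substrate of this transporter, was 5.65, 5.29 and 5.20 times the SLC6A2 message in shTDP43 libraries, against 3.91, 4.04 and 4.19 times in shNC libraries. Between the enzymes, DBH was 2.54, 2.36 and 2.59 times DDC in shTDP43 libraries, against 2.67, 2.87 and 2.91 times in shNC libraries. Neither ratio overlapped between the groups, and both were chosen after the genes' values were seen, so no test is given. For DBH over SLC6A2 the separation follows from the values of each gene and is no further result. DBH lay higher and SLC6A2 lower in every shTDP43 library than in any shNC library.

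MAOA (chromosome X, 43655006 to 43746817) had 7.21, 6.87 and 7.24 FPKM in shTDP43 libraries, against 5.94, 6.73 and 6.94 FPKM in shNC libraries. The highest shNC library lay above the lowest shTDP43 library, and shNC replicate 1 was the lowest of all 6. The log2 difference was 0.11 with a 95% interval from -0.03 to 0.25 (limma adjusted p = 0.193).

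**Figure D2:**
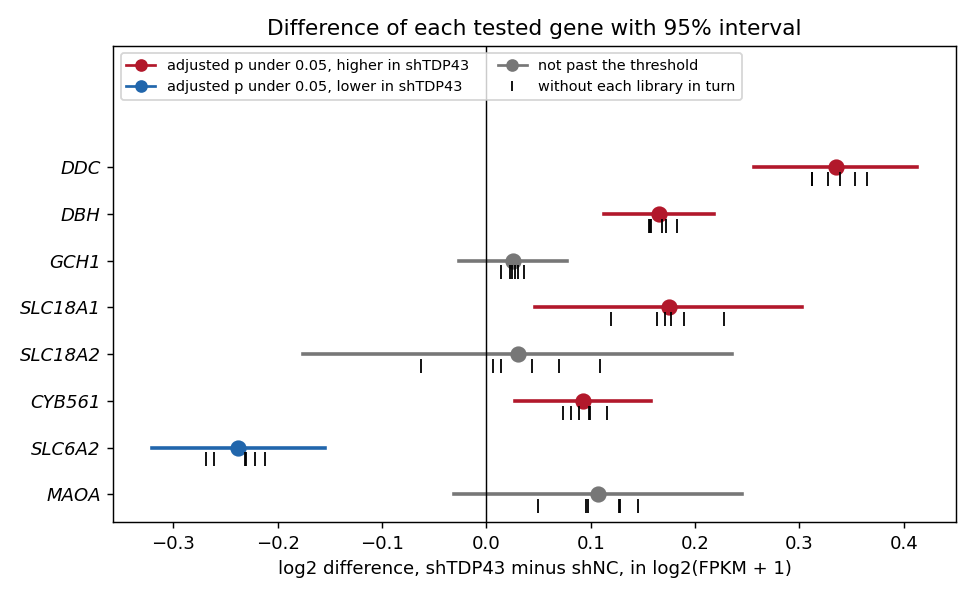
Log2 difference in log2(FPKM + 1), shTDP43 minus shNC (horizontal axis), of the 8 tested catecholamine genes with 95% intervals; black ticks are the values without each library in turn. DDC, DBH, SLC18A1 and CYB561 passed as higher and SLC6A2 as lower, and the ticks of SLC18A2 fall on both sides of 0.

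By mean level the order of the genes was DBH, DDC, GCH1, CYB561, SLC6A2, SLC18A1, MAOA, SLC18A2 and TH in both groups except for one pair: in shNC libraries GCH1 lay above DDC. In the shNC libraries GCH1 (63.3 ± 0.995 FPKM) and DDC (60.4 ± 2.29 FPKM; SD, n = 3 each) were close, and the highest DDC library stood above the lowest GCH1 library. The other neighbours in this order did not overlap in any library of either group. DBH was above 97.7% of tested genes in mean level, DDC above 93.6%, and SLC18A2 above 24.8%.

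The genes most like DDC across the 6 libraries, by Euclidean distance between log2 values centred on the shNC mean, were ONECUT2 (distance 0.035, r = 0.9998), GNRHR (distance 0.046, r = 0.997) and AFF3 (distance 0.05, r = 0.995). With 2 groups of 3 libraries such likeness mainly reflects the difference between the groups, and all 3 genes were called higher. ONECUT2 had 9.45 ± 0.274 FPKM in shTDP43 and 7.40 ± 0.273 FPKM in shNC (SD, n = 3 each). The same measure for TH, whose values are near 0, gave TCF7, HOXD4 and KIAA1328, with distances of 0.045, 0.063 and 0.068 and limma adjusted p values of 0.126, 0.127 and 0.0976.

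Around the pathway, genes for the tetrahydrobiopterin cofactor mostly did not pass, with 1 of 6 tested members higher (18.5% of all tested genes) and 1 lower (19.6% of all) and a median log2 difference of -0.06. PTS, the second enzyme gene of cofactor synthesis, had 26.1 ± 1.10 FPKM in shTDP43 and 23.5 ± 1.21 FPKM in shNC (SD, n = 3 each; limma adjusted p = 0.0328). PCBD2, a cofactor recycling gene, had 4.49 ± 0.305 FPKM in shTDP43 and 5.48 ± 0.56 FPKM in shNC (limma adjusted p = 0.0388). Both calls were lost with no filter on low values, without shTDP43 replicate 2, without shNC replicate 1, and without both libraries low in SNORD3A. The PTS call was lost as well with no variance trend and without shTDP43 replicate 3 or shNC replicate 3, and the PCBD2 call with quantile normalization and without shTDP43 replicate 1. A filter at a mean of 5 FPKM leaves PCBD2 untested.

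Of 13 other genes of catecholamine metabolism and transport, 9 were tested, and 4 were lower, against 19.6% of all tested genes, and 1 was higher, against 18.5% of all (median log2 difference -0.15). ATP7A, which supplies copper to secreted enzymes such as DBH, fell the most: it had 11.6, 11.6 and 11.0 FPKM in shTDP43 libraries, against 16.6, 16.9 and 16.7 FPKM in shNC libraries, 68.3% of the shNC mean (log2 difference -0.51, limma adjusted p = 2.29e-05). Each shTDP43 library lay far below each shNC library. SLC29A4, a low-affinity monoamine transporter gene, fell to 16.7 ± 0.323 FPKM in shTDP43, against 22.1 ± 1.56 FPKM in shNC (SD, n = 3 each). The aldehyde-clearing enzyme genes ALDH2 and AKR1B1 were the other two that fell, to 78.3% and 87.1% of the shNC level. DNAJC12, a co-chaperone gene of the aromatic amino acid hydroxylases to which TH belongs, was the one that rose, with 39.3, 39.3 and 38.1 FPKM in shTDP43 libraries, against 29.8, 30.6 and 28.8 FPKM in shNC libraries (log2 difference 0.38, limma adjusted p = 5.08e-05). ALDH2, AKR1B1 and DNAJC12 were named after their values were seen. PNMT, which makes adrenaline from noradrenaline, had 1.99 ± 0.186 FPKM in shTDP43 and 1.91 ± 0.389 FPKM in shNC (SD, n = 3 each; limma adjusted p = 0.757). The breakdown gene MAOB (89.2% of shNC, limma adjusted p = 0.168) did not pass, and the dopamine transporter gene SLC6A3 was listed at 0 in all 6 libraries.

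The vacuolar ATPase, whose proton gradient drives vesicular uptake, had 2 of 17 tested subunit and accessory genes higher and 4 lower (median log2 difference -0.06), and 1 higher and 3 lower without both libraries low in SNORD3A. Of all tested genes, 18.5% were higher and 19.6% lower, or 38.1% in either direction, a share close to that of these 17 genes. ATP6V1D had 26.4 ± 1.68 FPKM in shTDP43 and 21.6 ± 0.453 FPKM in shNC (SD, n = 3 each; limma adjusted p = 0.00218). ATP6V0A1 had 17.3 ± 0.36 FPKM in shTDP43 and 20.7 ± 0.928 FPKM in shNC (limma adjusted p = 0.00164). Among 14 receptor genes for adrenaline, noradrenaline and dopamine, 2 reached the level tested and both were lower (19.6% of all tested genes were). DRD2, a dopamine receptor and autoreceptor gene, had 3.10, 3.34 and 3.09 FPKM in shTDP43 libraries, against 6.03, 5.12 and 4.78 FPKM in shNC libraries (59.8% of shNC, limma adjusted p = 0.000816). ADRA2C, an inhibitory noradrenaline receptor gene, had 2.75 ± 0.367 FPKM in shTDP43 and 3.98 ± 0.409 FPKM in shNC (SD, n = 3 each; limma adjusted p = 0.00926). Without both libraries low in SNORD3A, 1 of these 2 calls was left.

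**Figure D3:**
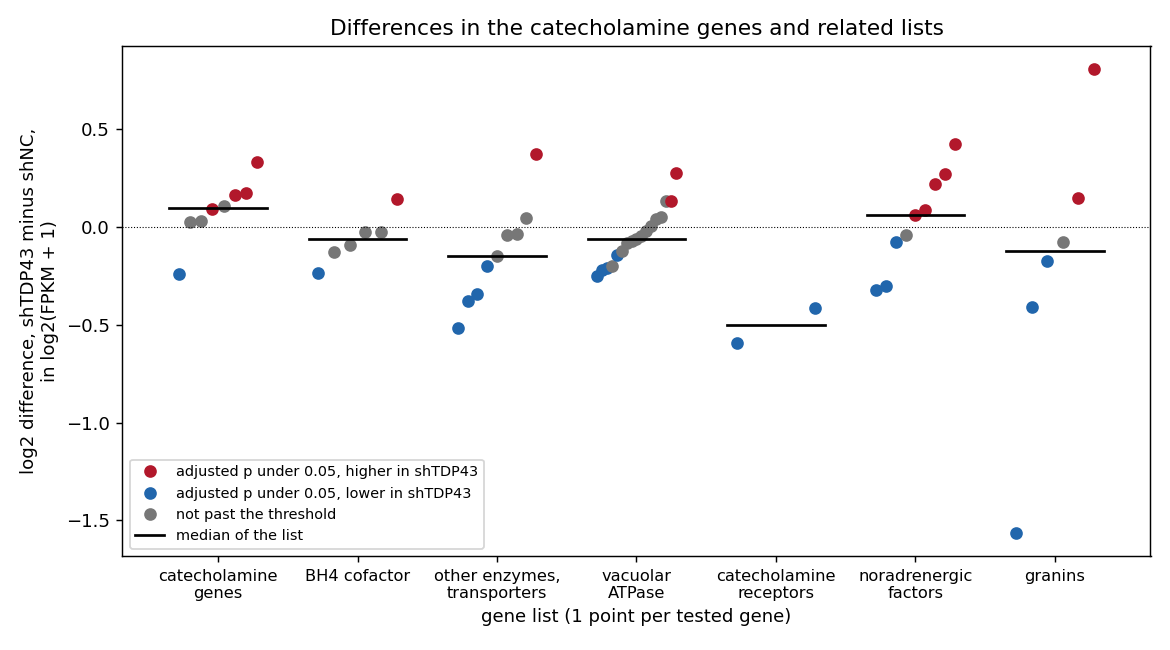
Log2 difference in log2(FPKM + 1), shTDP43 minus shNC (vertical axis), of each tested gene (points) in the catecholamine genes and 6 related lists (horizontal axis); BH4 is tetrahydrobiopterin, and black lines are list medians. The catecholamine genes span -0.24 to 0.33, a narrower range than the granins, which run from -1.56 to 0.81.

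The noradrenergic identity of the cells was checked with 10 lineage transcription factor genes. INSM1 was under the level tested, at 0 FPKM in each shTDP43 library and 0.0428 FPKM on average in shNC libraries. It was named after its values were seen. TH, the first enzyme gene of the pathway, was also close to 0 in both groups. HAND2 (424 FPKM in shTDP43 and 446 FPKM in shNC), GATA3 (149 FPKM in shTDP43 and 128 FPKM in shNC) and ISL1 (129.6 FPKM in shTDP43 and 122 FPKM in shNC, means of 3 libraries) were abundant in both groups. Of 9 tested factors 5 were higher, against 18.5% of all tested genes, and 3 lower, against 19.6% of all (median log2 difference 0.06). Without both libraries low in SNORD3A 4 were higher and 2 lower, and 3 were higher without shTDP43 replicate 2, shTDP43 replicate 3, shNC replicate 2 or shNC replicate 3. TFAP2B rose to 186.8 ± 2.85 FPKM in shTDP43, against 138.7 ± 3.54 FPKM in shNC, and PHOX2A fell to 107.3 ± 9.96 FPKM in shTDP43, against 134.0 ± 4.59 FPKM in shNC (SD, n = 3 each; limma adjusted p = 1.01e-05 and 0.00367). Messages of the granule proteins that are stored beside the amines differed by more than any of the 8 tested catecholamine genes at their extremes, with CHGB at 33.6% and CHGA at 175% of the shNC level (2 of 6 granin genes higher and 3 lower, against 18.5% and 19.6% of all tested genes).

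Of the genes listed for other transmitters, 2 cholinergic genes reached the level tested, and SLC18A3 was at a level like that of SLC18A2. CHAT, which makes acetylcholine, was under the level tested, with means of 0.202 FPKM in shTDP43 and 0.0887 FPKM in shNC. The choline transporter gene SLC5A7, also untested, averaged 0.146 FPKM in shTDP43, 1.16 FPKM in shNC and 0.655 FPKM over the 6 libraries. SLC18A3, CHAT and SLC5A7 were named after their values were seen. The cholinergic vesicle gene SLC18A3 had 4.76 ± 0.699 FPKM in shTDP43 and 5.38 ± 0.311 FPKM in shNC (SD, n = 3 each; limma adjusted p = 0.203), and ACHE, which degrades acetylcholine, had 1.11 ± 0.285 FPKM in shTDP43 and 4.31 ± 0.413 FPKM in shNC (limma adjusted p = 6.42e-05). In the cholinergic list of 4 genes 2 were tested, with 1 lower (19.6% of all tested genes) and 0 higher (18.5% of all). The number lower was 2 without shTDP43 replicate 2, where SLC18A3 passed beside ACHE. It was also 2 with no filter on low values, a setting that brings CHAT and SLC5A7 into the test. It was 0 with a filter at a mean of 5 FPKM, which leaves ACHE untested. Of 3 serotonin genes (TPH1, TPH2 and SLC6A4) 0 reached the level tested.

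Markers of mesenchymal-type neuroblastoma cells moved with the groups. Of 17 such genes 12 were tested, 10 lower (19.6% of all tested genes) and 2 higher (18.5% of all; 1 of the 12 higher without shTDP43 replicate 1 or 3, shNC replicate 1 or 3, or both libraries low in SNORD3A), and their summed level was 513 to 536 FPKM in shTDP43 libraries, against 622 to 630 FPKM in shNC libraries. COL3A1, a fibrillar collagen gene, stood at 11.7% and ANXA2, a membrane-binding protein gene, at 28.9% of the shNC level, while the defining factor gene PRRX1 was at or near 0 in both groups. The other way went TWIST1, a transcription factor gene and the most abundant of the list, which rose to 266.8 ± 8.34 FPKM in shTDP43, against 184.4 ± 3.23 FPKM in shNC (SD, n = 3 each; 144.7% of shNC, limma adjusted p = 5.11e-06), and FOSL2, a gene of the AP-1 family, which rose to 116.5% of the shNC level. TWIST1 is part of the sums above. TWIST1 and FOSL2 were named after their values were seen. Of 7 Schwann and glial markers 2 were tested and lower, against 19.6% of all tested genes (PMP22 and S100B; 1 without shNC replicate 1, shNC replicate 2 or both libraries low in SNORD3A), with a summed level of 9.23 to 9.45 FPKM in shTDP43 and 19.8 to 21.3 FPKM in shNC libraries, and the defining factor gene SOX10 averaged 0.295 FPKM in shTDP43 and 0.18 FPKM in shNC. Of 7 blood, endothelial and epithelial markers 2 were tested and 1 was lower, against 19.6% of all tested genes. That gene was KRT18, and 0 were lower without shNC replicate 2, which leaves KRT18 under the level tested. The summed level of the 7 was 1.91 to 2.99 FPKM in shTDP43 and 3.79 to 4.71 FPKM in shNC libraries, with PTPRC and PECAM1 near 0. The part of these cell states in the differences of the catecholamine genes was not tested.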

How the data were processed

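RNA of 6 SH-SY5Y libraries (3 shTDP43, 3 shNC) was analysed. The authors deposited FPKM values per gene symbol, and per the submitters' processing notes TopHat2 2.1.0, SAMtools and Cuffdiff 2.2.1 were used on build hg38. The annotation, the use of strand and how libraries were scaled are not stated there. The table holds no counts, so absolute depth is unknown, low genes are imprecise, and no count model was used.

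Values were analysed as log2(FPKM + 1) with limma 3.58.1 in R 4.3.3, with a variance trend, a two-sided test of group and Benjamini-Hochberg adjustment over the 13263 genes that averaged 1 FPKM or more (13109 were below it). The log2 scale with this pseudocount understates changes of low genes, so percentages are ratios of mean FPKM. The fit was run on simulated data with independent libraries and few changed genes. Such data differ from these libraries, so that run does not measure the error rate of the calls here. Relative depth was read from 1655 low genes as the most frequent ratio to shTDP43 replicate 1. All 9 symbols matched RefSeq (GRCh38.p14), which gave locations and promoter sequences.

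The genes and lists were chosen with earlier results of these data known. The named genes are the 9, TARDBP, the 2 called members with the largest difference in each list, PNMT, MAOB, SLC6A3 and the nearest patterns of TH and DDC; others are said to be named after their values were seen, and the marker genes were named as a check of cell type. A few genes, 1 of them taken by this rule, are not reported here. Ratios of DBH and DDC to TH could not be formed, as TH was listed at 0. Pairing of same-numbered libraries was checked by the correlation of their deviations from group means. Alternatives changed the pseudocount, filter, scaling, variance trend, block and libraries.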

Additional observations from a re-analysis of the deposited data

How the results depend on the processing

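TARDBP, DDC, DBH and SLC6A2 kept their direction and their call, and GCH1 and MAOA kept their direction and did not pass, under each of the 15 alternatives. DDC ran from 0.31 to 0.38, DBH from 0.15 to 0.20 and SLC6A2 from -0.27 to -0.21 on the log2 scale. The number of catecholamine genes called higher was 2 in place of 4 without a variance trend and without both libraries low in SNORD3A, and 2 to 4 without each library in turn; 1 gene was lower in every setting. SLC18A1 no longer passed, at the same log2 difference of 0.17, with no filter on low values (adjusted p = 0.0726), no variance trend (0.0573) or a replicate block (0.0636), nor at 0.12 without both libraries low in SNORD3A (0.183); leaving out 1 library gave 0.12 to 0.23. CYB561 no longer passed at 0.093 with no variance trend (adjusted p = 0.0869) or at 0.079 without both low-SNORD3A libraries (0.145), and leaving out 1 library gave 0.073 to 0.116. SLC18A2 ran from -0.062, without shTDP43 replicate 2, to 0.11, and was left out by a filter at 5 FPKM. TH, tested with no filter, had a log2 difference of 0.13 (adjusted p = 0.167). Across all genes 5054 were called, and 3323 without both low-SNORD3A libraries, a setting that also has fewer libraries. The causes of the changes between settings were not tested. Same-numbered libraries did not pair: their deviations correlated at -0.07, 0.06 and 0.11, and 2 of 6 libraries correlated best with their own number. With the replicate block 4502 genes were called in all, 3 in place of 4 catecholamine genes were higher, 3 in place of 5 noradrenergic factors were higher and 1 in place of 2 mesenchymal markers was higher. With no variance trend 3 noradrenergic factors were higher as well. Quantile normalization moved the median of all genes to 0.02.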
